A study of Mus musculus with 14 samples.

Results

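The regions described here are H3K4me3 peaks of mouse tumour cells that carried neither H3K27ac nor H3K27me3 and were still found after loss of Ezh2. They were selected on measured peak lists: a peak of the Cas9 tumour cells qualified if it overlapped, by 1 bp or more, no H3K27me3 island of those cells, no H3K27ac peak of the Ezh2 knockout or of the Cas9 cells, and at least 1 H3K4me3 peak of the knockout. In all, 2569 of the 14363 H3K4me3 peaks of Cas9 cells met the rule, a share of 17.9% (Wilson 95% interval 17.3 to 18.5). All 11 lists of enriched regions in the series together held 201448 regions. The peaks are called H3K4me3-only peaks in what follows, because that states the rule. Whether they lie at promoters could not be checked, since no gene annotation of the lists' genome build, mm9, was used.

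The study mapped histone marks and proteins on DNA by ChIP-seq, which enriches crosslinked chromatin with an antibody and sequences the recovered fragments. Knockout tumour cells carried the genotype p53-/-;p18-/- ;Ezh2-/- and Cas9 tumour cells the genotype p53-/-;p18-/-, so the controls also lacked p53 and p18. Both kinds were tumorspheres of Group 3 medulloblastoma, over-expressed Myc per the design text, received retroviral vectors and were sorted by fluorescence. The protocol goes on to transplantation into the brains of nude mice, and the labels do not tell whether the profiled cells had been in a host. Each was profiled for H3K27me3, H3K27ac and H3K4me3. Neurospheres, floating cultures of neural cells, were p53-/-;p18-/- as well. They were profiled with a Gfi1 antibody in cells labelled Suz12F2 and Cas9, and with a Cas9 antibody in cells labelled Suz12F1, Suz12F2 and U6. What U6, F1 and F2 mean is not explained in the labels. Each group was 1 library, so no test across samples was possible, and every difference below lacks a replicate check. Intervals cover counting error only, and neighbouring regions are not independent. The lists hold no read totals, so the depth behind each call is unknown, and a mark that was not called was not necessarily absent.

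H3K4me3 marks nucleosomes around transcription start sites, where it is laid down by complexes of the COMPASS family. At active promoters it is usually joined by H3K27ac, an acetyl mark on another lysine of the same histone, written mainly by p300 and CBP. H3K27me3 is placed on that same lysine by Polycomb repressive complex 2, whose catalytic subunit is Ezh2 and whose core also holds Suz12, and the acetyl and methyl marks cannot share a lysine. Gfi1 is a zinc finger transcriptional repressor that recruits histone demethylase and deacetylase complexes.

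The 4 conditions of the rule removed unequal numbers of peaks. Of the 14363 H3K4me3 peaks, 12567 lay outside H3K27me3 islands of Cas9 cells, 5579 of these also lay outside H3K27ac peaks of Cas9 cells, and 4136 lay outside those of the knockout too. The last condition, an H3K4me3 peak in the knockout, kept 2569 and left out 1567 bare peaks with no such partner. Over all H3K4me3 peaks of Cas9 cells, 85.4% were overlapped by a knockout H3K4me3 peak, a figure the rule used and from which nothing is read. The set is compared below with 4 other classes of the same list. They are the 1340 peaks with H3K27ac called in the knockout alone, the 1567 bare peaks without a knockout partner, the 852 peaks in an H3K27me3 island that kept H3K4me3 and had no H3K27ac, and the 6422 peaks acetylated in both kinds of cell and free of H3K27me3.

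At the edges of the rule, 31 H3K4me3-only peaks lay under 50 bp from an H3K27ac peak. Their median width was 316 bp and their median score percentile 26.4. On the other side, 20 peaks were left out because H3K27ac overlapped them by under 50 bp, with a median width of 348.5 bp and a median percentile of 19.96. A knockout H3K4me3 peak covered 66 of the H3K4me3-only peaks by under 50 bp, with a median width of 233.5 bp. As many bare peaks, 66, missed a knockout peak by a gap under 50 bp, and their median width was 222 bp. Peaks just inside and just outside the rule were thus alike in width.

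H3K4me3-only peaks were narrow. Their knockout partners, meaning the knockout H3K4me3 peak with the longest overlap, had a median width of 383 bp (quartiles 262 and 561), and the peaks themselves measured 429 bp in Cas9 cells (quartiles 288 and 611, interval of the median 419 to 439). In Cas9 cells the narrowest measured 180 bp, which is the shortest length in that list, and the widest 2808 bp. Peaks acetylated in both kinds of cell were about double that, with medians of 710 bp in the knockout and 835 bp in Cas9 cells. The medians were 598 bp over all knockout partners and 601 bp over all peaks of Cas9 cells. A width of at least 1000 bp was reached by 116 H3K4me3-only peaks (4.52%), against 34.1% of the peaks acetylated in both and 18.9% of all peaks. The bare peaks without a knockout partner were narrower still, at a median of 235 bp, and the H3K27me3 peaks that kept H3K4me3 had medians of 470.5 bp in the knockout and 402 bp in Cas9 cells. Width also moved with score. In 4 bands of the Cas9 score, lowest first, H3K4me3-only peaks had median widths of 274, 467, 641 and 697.5 bp. Over all peaks of these bands the medians were 251, 494, 728 and 975 bp, so in the lowest band H3K4me3-only peaks were not the narrower ones. For peaks acetylated in both they were 325, 546, 751 and 997.5 bp. The rule was applied to this same list, so these widths describe the choice and were not tested.

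Rank gave the same order. The authors' score of a peak orders peaks within 1 list, so it was turned into a percentile, the share of that list's peaks with a lower score, ties counted by their mid rank. H3K4me3-only peaks had a median percentile of 31.2 in the knockout list (quartiles 18.5 and 50.4) and of 32.0 in the Cas9 list (quartiles 19.96 and 47.4). The median percentiles were 74.5 in the knockout and 75.4 in Cas9 cells for peaks acetylated in both, against 59.0 over all knockout partners and 49.3 over all peaks of Cas9 cells. In the upper 50% of the Cas9 scores lay 549 H3K4me3-only peaks (21.4%), and in the upper 10% lay 18 (0.701%). Since the rule was applied to this same list, these ranks describe the choice and are not tested.

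Across 10 score bins of the Cas9 list, the H3K4me3-only share was highest in the middle of the lower part. It was 19.3% in bin 1 (scores 7 to 11), 28.2% in bin 2, 31.9% in bin 3, 34.7% in bin 4 (scores 18 to 21) and 27.05% in bin 5. From bin 6 it was 18.0%, then 10.5%, 6.08% and 3.56%, and it was 1.21% in bin 10 (scores 51 to 98). The weakest peaks of the list were thus more often without a knockout partner than H3K4me3-only, and the strongest were mostly acetylated in both.

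**Figure D1:**
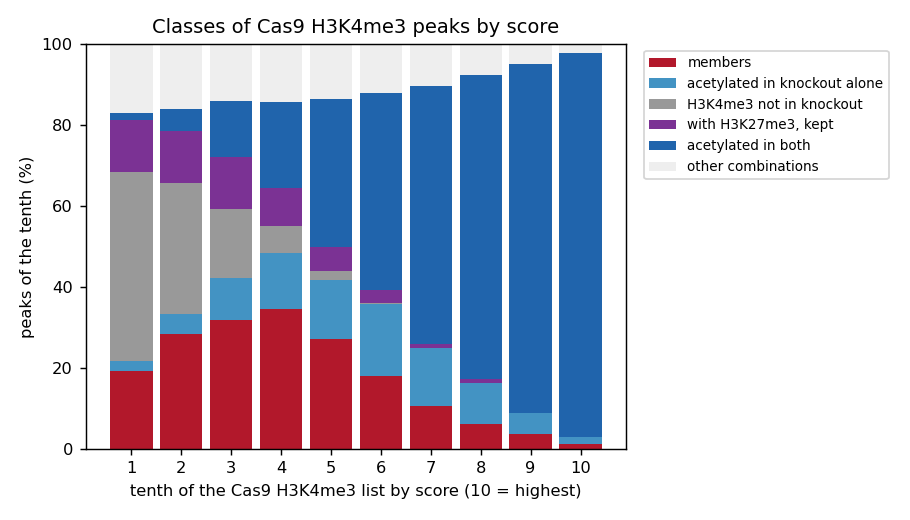
Share of the H3K4me3 peaks of Cas9 tumour cells (vertical axis, percent) that fell into each class, in 10 bins of the Cas9 score from lowest to highest (horizontal axis). The H3K4me3-only peaks, called members in the key, took 34.7% of bin 4 and 1.21% of bin 10, where peaks acetylated in both filled most of the bar.

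The strongest H3K4me3-only peaks reached the top of the H3K4me3 lists without a called H3K27ac peak. On chromosome 14, the peak at chr14:21612403-21613682 had a score of 43 in the knockout (percentile 94.0, width 1229 bp) and of 66 in Cas9 cells (percentile 98.3, width 1280 bp). Its nearest H3K27ac peak was 58567 bp away in the knockout and 58569 bp in Cas9 cells, and its nearest H3K27me3 island of Cas9 cells was 41318 bp away. The peak at chr4:155570741-155571649 scored 50 in the knockout and 66 in Cas9 cells, with H3K27ac 37115 bp away in the knockout and 37147 bp in Cas9 cells. It lay 4751 bp from an H3K27me3 island of Cas9 cells and 91 bp from another H3K4me3 peak. Of the 10 peaks with the highest Cas9 scores, 9 lay at least 1 kb from any H3K27ac peak, as did 68.3% of all H3K4me3-only peaks. In the knockout 8 were narrower, as were 66.4% of all peaks with a partner and 74.2% of those acetylated in both. All 10 lay in a Gfi1 antibody island of both neurosphere lists, as did 86.0% of all H3K4me3 peaks.

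One of those 10 stood out by its change in width. The peak at chr8:127245284-127246697 measured 557 bp in the knockout and 1414 bp in Cas9 cells. Its scores were 30 in the knockout (percentile 72.2) and 58 in Cas9 cells (percentile 95.4). Among the 5 widest H3K4me3-only peaks, chr9:56712766-56715351 measured 810 bp in the knockout and 2586 bp in Cas9 cells, and chr17:25706470-25708560 measured 687 bp in the knockout and 2091 bp in Cas9 cells. In contrast, chr11:97660322-97662487 kept most of its width, with 1976 bp in the knockout and 2166 bp in Cas9 cells. These regions were chosen for their Cas9 values, so their widths describe the choice and were not tested.

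The H3K4me3-only peaks were split into 2 kinds by their distance to acetylated chromatin. The gap to the nearest H3K27ac peak of either kind of cell was under 1 kb for 815 of them (31.7%, interval 29.95 to 33.6), called near peaks here, and 1 kb or more for 1754 (68.3%), called remote peaks. A gap under 1 kb was found for 49.4% of the bare peaks without a knockout partner. Over all H3K4me3 peaks, those overlapped by H3K27ac included, it was found for 75.5%. Few lay between the 2 kinds: 409 had gaps of 100 to 300 bp and 314 of 300 bp to 1 kb, only 120 had gaps of 1 to 3 kb, and 532 had gaps of 30 to 100 kb. The limit of 1 kb between near and remote was set after these gaps had been seen.

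**Figure D2:**
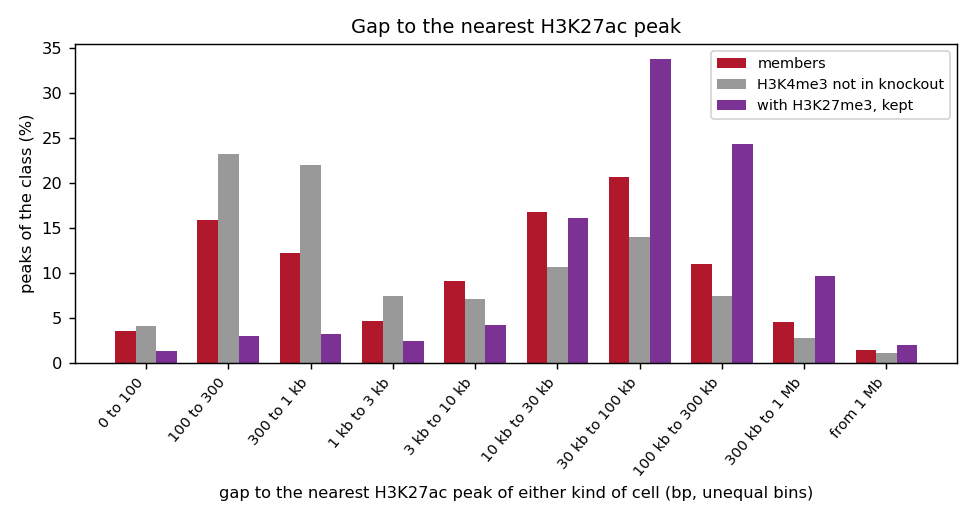
Share of peaks of each class (vertical axis, percent) by the gap to the nearest H3K27ac peak of either kind of tumour cell (horizontal axis, bp, in unequal bins), for H3K4me3-only peaks (members), bare peaks whose H3K4me3 was not called in the knockout, and peaks with H3K27me3 that kept H3K4me3. The H3K4me3-only peaks had 15.9% at 100 to 300 bp, 4.67% at 1 to 3 kb and 20.7% at 30 to 100 kb.

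Distances to the 2 H3K27ac lists were of the same order. The median gap was 18260 bp to a knockout H3K27ac peak (quartiles 579 and 69148) and 24851 bp to a Cas9 H3K27ac peak (quartiles 834 and 92486). Gaps under 1 kb were found for 753 H3K4me3-only peaks with the knockout list (29.3%) and for 665 with the Cas9 list (25.9%). Over all H3K4me3 peaks, overlapped ones included, these shares were 72.5% with the knockout list and 60.9% with the Cas9 list. Within 50 kb the numbers were 1783 (69.4%, against 87.2% of all H3K4me3 peaks) with the knockout list and 1642 (63.9%, against 78.4%) with the Cas9 list. The knockout list was the longer one, with 10112 H3K27ac peaks against 7951 in Cas9 cells, and this difference in length moves with the shorter gap. When the knockout list was trimmed by score to the length of the Cas9 list, the same 2569 peaks had a median gap of 27453 bp to it, against 24851 bp to the Cas9 list, so the order turned round. This distance was added after the data had been seen. With the rule itself applied again to the trimmed list, 3206 peaks qualified, and their medians were 30127.5 bp to the knockout list and 27518 bp to the Cas9 list.

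Near peaks lay beside acetylated H3K4me3 peaks. This follows in large part from the split, since H3K27ac under 1 kb away defined the near kind. Another H3K4me3 peak of Cas9 cells was found within 1 kb of 793 of the 815 near peaks (97.3%), at a median gap of 138 bp, and it was acetylated in 737 cases (92.9%). The near peak had the lower score in 662 of these 737 pairs and was the narrower in 637. Its median score was 15 and its median width 328 bp, against 37 and 741 bp for the acetylated neighbour. Most near peaks were thus smaller calls beside a larger acetylated one.

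Remote peaks were mostly alone, as were most peaks of the whole H3K4me3 list. Another H3K4me3 peak of Cas9 cells lay within 1 kb of 556 of the 1754 (31.7%), and there it was itself H3K4me3-only in 362 cases (65.1%), bare without a knockout partner in 166 and acetylated in 25. The last number is kept low by the split itself. No other H3K4me3 peak lay within 1 kb of the remaining 1198, which were 46.6% of all H3K4me3-only peaks. These isolated peaks had a median width of 500.5 bp and a median score percentile of 38.9 in Cas9 cells, both above the medians over all H3K4me3-only peaks. A neighbour within 1 kb was found for 52.5% of all H3K4me3-only peaks, near and remote together, against 42.1% of the whole H3K4me3 list. For peaks acetylated in both this share was 36.0%.

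Both kinds differed in size and in the width of their knockout partners, although the width ratio also moved with the Cas9 score. In Cas9 cells the median width was 331 bp for near and 480.5 bp for remote peaks, and the median percentile was 23.3 for near and 36.8 for remote peaks. The ratio of knockout to Cas9 width had a median of 1.01 in near peaks (interval 0.981 to 1.05) and of 0.850 in remote peaks (interval 0.833 to 0.866). Over all H3K4me3-only peaks it was 0.887, against 0.881 for peaks acetylated in both and 0.897 for all peaks with a partner. The H3K4me3-only median lay between those 2 values. Not every class was narrower in the knockout: H3K27me3 peaks that kept H3K4me3 had a median ratio of 1.11, at a median percentile of 23.3 in Cas9 cells. The Cas9 list was also cut into 4 score bands of like size, band 1 being the lowest. Over all peaks with a partner the median ratio was 1.13 in band 1 and 0.874, 0.870 and 0.896 in bands 2 to 4. In bands 1 to 3 it was 1.18, 0.898 and 0.925 for near peaks. For remote peaks it was 0.967, 0.816 and 0.833. Band 1 held 422 of the 815 near peaks, and in bands 2 and 3 their median was under 1.

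In counts, the knockout partner was narrower for 1594 H3K4me3-only peaks (62.0%), wider for 957 (37.3%) and of equal width for 18. Over all peaks with a partner, 66.4% had a narrower and 33.3% a wider one. It was at least 2 times as wide for 238 peaks, of which 186 were near (22.8% of near peaks) and 52 remote (2.96% of remote peaks), against 4.82% of all peaks with a partner. Partners at most 0.5 times as wide were found for 288 peaks, 75 of them near (9.20%) and 213 remote (12.1%), against 7.32% of all peaks with a partner. Most partners of at least 2 times the width thus lay next to acetylated peaks.

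Of the 186 near peaks whose partner was at least 2 times as wide, 178 (95.7%) had a partner that overlapped at least 1 more Cas9 H3K4me3 peak, and for 156 (83.9%) it touched a knockout H3K27ac peak. Over all peaks with a partner at least 2 times as wide, these shares were 77.2% and 66.6%. Over such peaks acetylated in both they were 94.2% and 100%, so neither trait was particular to near peaks. Without regard to width, a partner that overlapped at least 2 Cas9 H3K4me3 peaks was found for 243 near peaks (29.8%) and 96 remote peaks (5.47%), against 7.90% of all peaks with a partner. The partner touched an H3K27ac peak of the knockout for 193 near peaks (23.7%) and 4 remote peaks (0.228%), although the Cas9 peak itself did not, against 70.5% of all peaks with a partner, most of them acetylated themselves. The split by distance to H3K27ac favours the near peaks here. All 5 of the H3K4me3-only peaks with the highest knockout scores were of this near kind. They were chosen for their knockout scores, so a rise over the Cas9 values describes the choice and was not tested. At chr1:134922062-134922322, for example, the partner scored 57 (percentile 99.6) and measured 786 bp in the knockout. The Cas9 peak there scored 14 (percentile 19.96) and measured 261 bp. Its nearest H3K27ac peak was 125 bp away in the knockout and 119 bp in Cas9 cells. At chr1:194680671-194680850 the partner scored 55 (percentile 99.4) and measured 1301 bp in the knockout. The Cas9 peak there scored 7 (percentile 0.0139) and measured 180 bp. Where 1 Cas9 peak had 1 partner and that partner had no other, the median width ratio over H3K4me3-only peaks was 0.860.

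**Figure D3:**
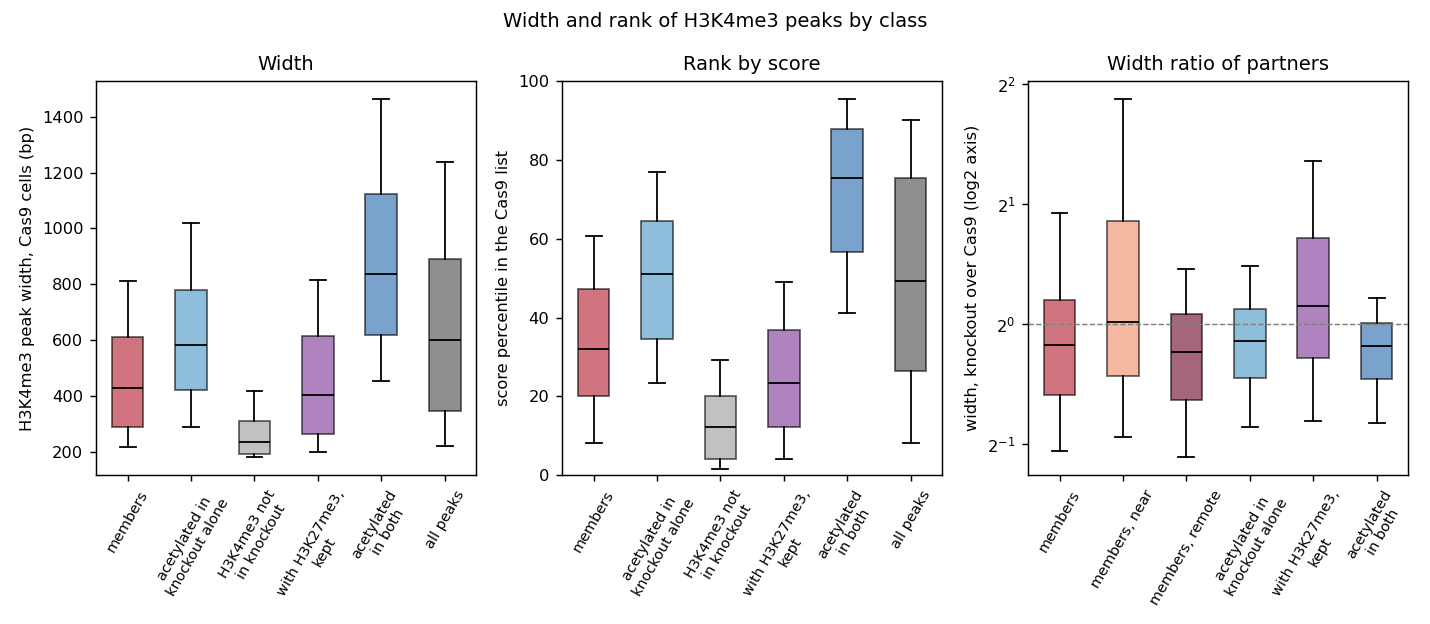
Width of H3K4me3 peaks in Cas9 cells (left, bp), score percentile in the Cas9 list (middle) and knockout over Cas9 width ratio of partners (right, log2 axis) for each class. Boxes give quartiles with the median line and whiskers the 10th and 90th percentiles over peaks; H3K4me3-only peaks (members) had medians of 429 bp, 32.0 and 0.887, and the near ones alone had a median ratio of 1.01.

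Most H3K4me3-only peaks had no Polycomb region within 50 kb, although the rule itself had removed every peak inside an H3K27me3 island of Cas9 cells. The median gap to such an island was 73817 bp (quartiles 24766 and 235395, interval of the median 68914 to 81425). Other classes free of H3K27me3 had median gaps at or above the upper part of that interval, 79550.5 bp for peaks acetylated in the knockout alone, 80047 bp for bare peaks without a knockout partner and 85609 bp for peaks acetylated in both. Over all H3K4me3 peaks, those inside islands included, the median was 61801 bp. Gaps under 1 kb were found for 53 H3K4me3-only peaks (2.06%), under 5 kb for 196 (7.63%) and under 50 kb for 1044 (40.6%). For peaks acetylated in both these shares were 1.01%, 5.40% and 36.2%, and over all H3K4me3 peaks 45.3% had a gap under 50 kb. Remote peaks had a median gap of 69339 bp and near peaks of 85027 bp. The remote peaks were therefore somewhat closer to H3K27me3 than the near ones, and both medians were above 50 kb.

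A few H3K4me3-only peaks bordered an H3K27me3 island. The closest, chr15:98557849-98558598, ended 2 bp from an island of Cas9 cells and measured 561 bp in the knockout and 750 bp in Cas9 cells, with H3K27ac 34635 bp away in the knockout and 34495 bp in Cas9 cells. At chr2:119096632-119096931 the island was 31 bp away, and the peak measured 204 bp in the knockout and 300 bp in Cas9 cells. At chr8:14089875-14090352, 48 bp from an island, the widths were 448 bp in the knockout and 478 bp in Cas9 cells. These 3 peaks were narrower in the knockout, as were 62.0% of all H3K4me3-only peaks and 66.4% of all peaks with a partner. H3K27me3 was called in 5312 islands in the knockout and 14107 in Cas9 cells, and a link to these widths was not tested. The next in order, chr5:15441256-15441435, lay 55 bp from an island but also 59 bp from a knockout H3K27ac peak, and it measured 1265 bp in the knockout and 180 bp in Cas9 cells.

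In the knockout, H3K27me3 islands held 8 of the 2569 H3K4me3-only peaks (0.311%, interval 0.158 to 0.613). Over all H3K4me3 peaks the share was 1.56%, over peaks acetylated in both it was 0.343%, and over H3K27me3 peaks that kept H3K4me3 it was 10.4%. The shares of the H3K4me3-only and the acetylated peaks differed by less than their counting error. The 1 of these 8 with the highest Cas9 score, chr1:174412247-174413008, scored 23 in the knockout and 28 in Cas9 cells and lay 1846 bp from an island of Cas9 cells. At chr3:95708317-95708727 the peak measured 646 bp in the knockout and 411 bp in Cas9 cells, and its nearest island of Cas9 cells was 301873 bp away.

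On chromosome X the H3K4me3-only share was far above that of the autosomes. Of its 351 H3K4me3 peaks, 123 were H3K4me3-only (35.0%, interval 30.2 to 40.2), against 2446 of 14011 on the autosomes (17.5%, interval 16.8 to 18.1). The 19 autosomes ranged between 14.1% and 20.1%, so no autosome came near X. The excess lay in the remote kind, with 109 remote peaks on X (31.1% of its peaks) and 1645 on the autosomes (11.7%).

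**Figure D4:**
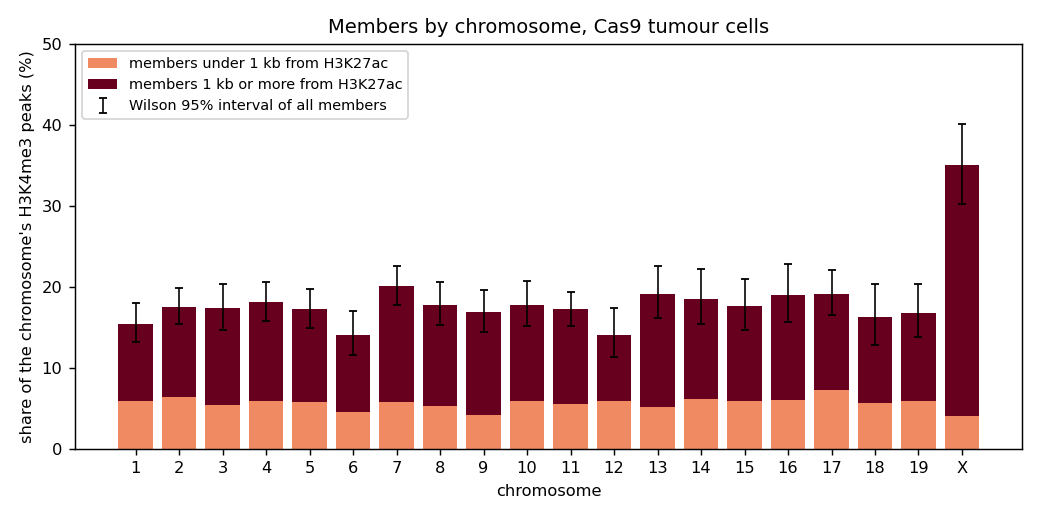
Share of each chromosome's H3K4me3 peaks in Cas9 cells (vertical axis, percent) that were H3K4me3-only, split into those under 1 kb and those 1 kb or more from H3K27ac (stacked bars), with the Wilson 95% interval of the whole bar. Chromosome X stood at 35.0% and the 19 autosomes between 14.1% and 20.1%.

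Peaks on X also ranked low as a whole, with a median Cas9 score percentile of 23.3 over all X peaks and 51.1 over autosomal peaks, and low rank moves with the H3K4me3-only share. With the Cas9 list cut into 4 score bands of like size, band 1 being the lowest, remote H3K4me3-only peaks were 32.1% of the band 1 peaks on X (interval 26.002 to 39.0) and 11.9% on the autosomes (interval 10.8 to 13.0). Within band 2 they were 32.1% on X (interval 24.7 to 40.5) and 22.2% on the autosomes (interval 20.8 to 23.6). X had 24 peaks in band 3 and 0 in band 4. The remote share was thus higher on X in bands 1 and 2. The share of all H3K4me3-only peaks, near ones included, was 37.8% on X (interval 31.3 to 44.7) and 24.1% on the autosomes (interval 22.7 to 25.6) in band 1. In band 2 it was 34.4% on X (interval 26.8 to 42.8) and 31.0% on the autosomes (interval 29.5 to 32.6), which was no detectable difference. Scores also differed inside band 1, where the median percentile of H3K4me3-only peaks was 8.09 on X and 16.2 on the autosomes.

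Acetylation and partners were both scarcer on X, where peaks also ranked lower by score. Over the whole list, peaks acetylated in both were 1.85% of score bin 1 and 94.8% of bin 10. Bare peaks without a knockout partner were 46.9% of bin 1 and 0% of bin 10. The part of score in the X shares below was not tested. H3K27ac of either kind of cell overlapped 39.3% of the X peaks (interval 34.3 to 44.5) and 64.5% of the autosomal ones. A knockout H3K4me3 peak overlapped 70.4% on X and 85.8% on the autosomes, and H3K27me3 islands of Cas9 cells overlapped 3.42% on X and 12.7% on the autosomes. H3K4me3-only peaks on X had a median gap to H3K27ac of 82008 bp, against 13266.5 bp on the autosomes, and a median width of 377 bp on X, against 430 bp on the autosomes. Of the 5 H3K4me3-only peaks farthest from H3K27ac, 3 were on X, the farthest being chrX:120217310-120217509 at 10376294 bp in the knockout and 10376287 bp in Cas9 cells.

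Gfi1 antibody islands of neurospheres held nearly all H3K4me3-only peaks. In Suz12F2 neurospheres they held 2460 of 2569 (95.8%, interval 94.9 to 96.5), where the share over all H3K4me3 peaks was 97.5%. In Cas9 neurospheres they held 2123 (82.6%, interval 81.1 to 84.1), where it was 86.4% over all H3K4me3 peaks. Both shares were near these backgrounds and slightly under them, so lying in a Gfi1 island did not mark the H3K4me3-only peaks out. The islands were long and many: the Suz12F2 list held 67079 over 294 Mb and the Cas9 list 63177 over 368 Mb. They come from other cells than the H3K4me3 peaks, which limits what an overlap can say.

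Islands of both neurosphere lists held 2105 H3K4me3-only peaks (81.9%, against 86.0% of all peaks). Islands of Suz12F2 alone held 355 (13.8%, against 11.5%), islands of Cas9 alone held 18 (0.701%, against 0.432%) and no island held 91 (3.54%, against 2.10%). Near peaks lay in Suz12F2 islands in 96.3% and in Cas9 islands in 86.6% of cases, and remote peaks in 95.5% for Suz12F2 and 80.8% for Cas9. The gap between near and remote peaks was thus seen in the Cas9 list, where the intervals of 84.1 to 88.8 and 78.9 to 82.6 did not overlap. Chromosome X held 1.72% of the near and 6.21% of the remote peaks, and the 2 kinds also differed in score. The part of X and of score in this gap was not tested. On X, Gfi1 islands of Cas9 neurospheres held 40.7% of the H3K4me3-only peaks (interval 32.4 to 49.5), against 42.2% of all X peaks. Suz12F2 islands held 87.8% of the H3K4me3-only peaks on X, against 89.2% of all X peaks. Without X the share in Cas9 neurospheres was 84.8%.

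Against peaks acetylated in both, the H3K4me3-only share was lower by a few percentage points. The difference was -3.56 points in Suz12F2 neurospheres (Newcombe 95% interval -4.43 to -2.81) and -4.56 points in Cas9 neurospheres (interval -6.27 to -2.92). Score moved with both. In score bands 1 to 4, the difference in Suz12F2 neurospheres was -4.72, -1.09, -0.38 and 0.31 points. In Cas9 neurospheres it was -3.87, 0.62, 1.09 and 1.08 points. Above band 1 every interval included 0, so no difference from acetylated peaks of the same band was detectable there. In band 1 the interval excluded 0 in Suz12F2 neurospheres (-7.43 to -0.538) but not in Cas9 neurospheres (-9.88 to 3.21). These differences pool near and remote peaks. In band 1, Gfi1 islands of Cas9 neurospheres held 82.5% of near and 70.3% of remote peaks (interval 66.0 to 74.3). They held 82.4% of all band 1 peaks (interval 81.1 to 83.6) and 80.0% of those acetylated in both (interval 73.5 to 85.3).

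Islands that held H3K4me3-only peaks were longer than those that held peaks acetylated in both, and in Suz12F2 neurospheres about as long as those that held any H3K4me3 peak. In Suz12F2 neurospheres their median length was 3400 bp, against 3800 bp for bare peaks without a knockout partner, 2600 bp for peaks acetylated in both, 3200 bp for all H3K4me3 peaks and 3000 bp over the list. In Cas9 neurospheres it was 5000 bp, against 5800 bp for bare peaks, 3400 bp for peaks acetylated in both, 4400 bp for all H3K4me3 peaks and 4000 bp over the list. Their median score percentile within the list was 78.8 in Suz12F2 neurospheres, against 75.4 for peaks acetylated in both and 78.6 for all H3K4me3 peaks. In Cas9 neurospheres it was 72.2, against 58.5 for peaks acetylated in both and 67.4 for all H3K4me3 peaks. Islands that held H3K27me3 peaks with kept H3K4me3 were the longest of these classes, at 5600 bp in Suz12F2 and 7400 bp in Cas9 neurospheres.

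Cas9 antibody islands, called in neurospheres with an antibody to the bacterial nuclease, held few H3K4me3-only peaks. They held 2 in Suz12F1 neurospheres (0.0779%, against 0.0557% of all H3K4me3 peaks), 84 in Suz12F2 neurospheres (3.27%, against 6.39%) and 167 in U6 neurospheres (6.50%, against 13.2%). Any of the 3 lists held 223 (8.68%), against 16.5% of all peaks. The low share belonged mainly to the remote peaks, with 1.77% in Suz12F2 and 4.16% in U6 islands, while near peaks reached 6.50% in Suz12F2 and 11.5% in U6 islands.

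**Figure D5:**
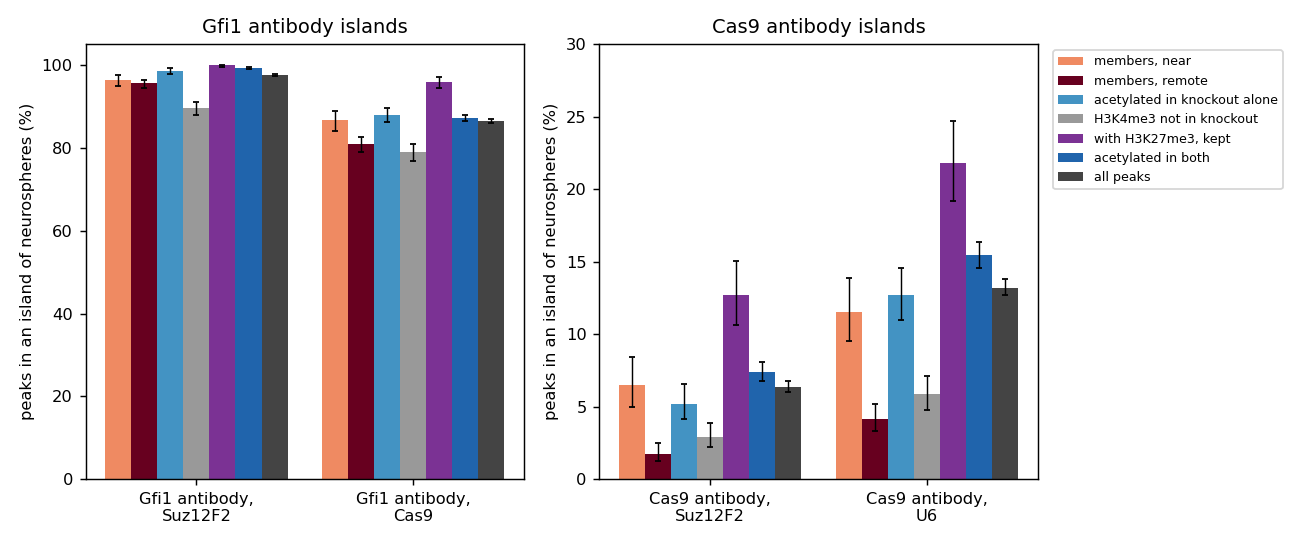
Share of H3K4me3 peaks of Cas9 tumour cells (vertical axes, percent) that lay in Gfi1 antibody islands (left) and Cas9 antibody islands (right) of neurospheres, by class, with near and remote H3K4me3-only peaks (members) apart and Wilson 95% intervals as bars. Remote peaks stood at 95.5% and 80.8% in the Gfi1 lists and at 1.77% and 4.16% in the Cas9 antibody lists.

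Compared with peaks acetylated in both, the H3K4me3-only share in U6 islands was lower by 8.96 points (difference -8.96, interval -10.2 to -7.63). In score bands 1 to 4 it was -2.24, -2.08, -2.46 and -12.1 points. The interval excluded 0 only in band 4, -16.2 to -5.20, where 9 of 108 H3K4me3-only peaks (8.33%) and 660 of 3232 acetylated peaks (20.4%) lay in a U6 island. Within band 4 the H3K4me3-only peaks were also narrower in Cas9 cells, at a median of 697.5 bp against 997.5 bp. The part of width in the band 4 difference was not tested. All these differences pool near and remote peaks. In band 2, U6 islands held 2.55% of remote (interval 1.68 to 3.87) and 12.4% of near peaks (interval 9.22 to 16.5). They held 7.36% of band 2 peaks acetylated in both (interval 5.86 to 9.22). In band 1 they held 3.25% of remote (interval 1.98 to 5.29) and 9.72% of near peaks. They held 9.63% of all band 1 peaks (interval 8.71 to 10.6). In bands 1 and 3 the intervals of remote and acetylated peaks overlapped.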

How the data were processed

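The deposited lists hold enriched regions of 11 ChIP-seq libraries, 1 library per group, with the authors' score for each region. The submitters' processing notes name the build mm9 and, with no role or order, SICER 1.1, BWA 0.5.9-r26, SAMtools, Picard and R 2.14.0. Islands (H3K27me3, Gfi1 and Cas9 antibody) were joined from windows of 200 bp across gaps of 600 bp at a false discovery rate of 0.00001, per the names of the deposited lists. No caller of the narrow H3K4me3 and H3K27ac peaks is stated (not given in the sources used here). Calls depend on depth, which the lists do not hold, so lists of different lengths can differ for that reason alone.

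Overlaps of 1 bp, gaps between nearest ends, widths, score percentiles and Wilson 95% intervals came from scripts in Python 3.11.15 (scipy 1.17.1, numpy 2.4.6), with plots by matplotlib 3.10.9. All starts are 1-based, and 1 bp was added to island ends so that neighbouring windows met. Results were checked against bedtools 2.31.1, with 0 differences over 20 overlap sets and 143630 distances, and were tested on simulated data. The overlap sets that asked for 50% cover were checked only to hold every bedtools call, because cover was summed over regions here. Regions named were the 10 with the highest Cas9 score and 5 each of the widest, the narrowest, the highest in the knockout, the farthest from H3K27ac, the nearest to H3K27me3 of Cas9 cells and the highest in knockout H3K27me3 islands, and some of them are given. The rule, the comparison classes and the lists were chosen with earlier results of these data known. The 3 input libraries were not used here. Gene names, gene lists, base composition and sequences would have needed an mm9 genome and annotation and were not computed. Alternatives were a 50% overlap, gaps of at least 1 kb to H3K27ac or 5 kb to H3K27me3, the upper 50% of scores, a trimmed knockout H3K27ac list, autosomes alone, single partners, centre distances, no Cas9 antibody islands, and 4 score bands.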

Additional observations from a re-analysis of the deposited data

How the results depend on the processing

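Of the 87 values recomputed under an alternative, 44 stayed within the interval of the reported value or, for the number of peaks, within 1.5 times of it, 39 moved further and 4 turned their sign. When every step asked for a cover of at least 50%, 4318 peaks (30.1%) met the rule; the cause was not tested, since 3 marks' overlaps changed at once. Asking for at least 1 kb to H3K27ac kept 1754 peaks, 12.2% of the H3K4me3 peaks, and at least 5 kb to H3K27me3 of Cas9 cells kept 16.5%. In the upper 50% of Cas9 scores, 549 peaks (7.68%) met the rule, with a median width of 653 bp, a percentile of 60.7, a width ratio of 0.854, a partner percentile of 53.1, gaps of 26332 bp to knockout H3K27ac, 32341 bp to Cas9 H3K27ac and 51660 bp to H3K27me3, Gfi1 shares of 99.3% in Suz12F2 and 88.2% in Cas9 neurospheres, a U6 share of 9.29% and a neighbour within 1 kb for 35.9%. With the 2569 peaks unchanged, the gap to the trimmed knockout H3K27ac list, an alternative chosen after seeing the data, was 27453 bp. With the rule applied to the trimmed list, 3206 peaks qualified, the share was 22.3%, the median width 457 bp, the gaps 30127.5 bp to the knockout and 27518 bp to the Cas9 list, the Suz12F2 Gfi1 share 96.5% and the share with a neighbour 48.9%. On autosomes alone the Gfi1 share in Cas9 neurospheres was 84.8%. Without peaks in Cas9 antibody islands the share was 19.6% and that with a neighbour 50.5%. Single partners gave a width ratio of 0.860. With 50% of the peak inside the island, the Gfi1 share of Suz12F2 was 94.9% and the U6 share 5.18%. With the upper 50% of islands by score, the Gfi1 shares were 79.4% in Suz12F2 and 58.0% in Cas9 neurospheres. Against peaks acetylated in both, the difference in score bands 1 to 4 was -4.72, -1.09, -0.378 and 0.309 points for Gfi1 in Suz12F2 neurospheres, 0.617, 1.09 and 1.08 points in bands 2 to 4 for Gfi1 in Cas9 neurospheres, and -2.24, -2.08, -2.46 and -12.1 points for U6. Other causes were not tested. One library per group, unknown depth and the lack of an annotation limit all values: an uncalled mark may lie under the caller's threshold, a bare peak may be a fragment of a larger one, and a difference between knockout and Cas9 lists cannot be told apart from a difference between 2 libraries. No paired analysis was possible because every group held 1 library and no result came from a test.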
